A study of Mus musculus with 5 samples.

Results

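Cytosolic ribosomal protein genes were described in MLE-15 cells that carried a lentiviral shRNA against Grhl2 and in MLE-15 cells that carried a non-silencing shRNA. Members were the probe sets to which the platform annotation gives a single symbol that starts with Rps or Rpl and a digit, or is Rpsa, Rplp0, Rplp1 or Rplp2. Rps6k kinase genes and symbols with -ps were left out. This rule took 195 of 21640 single-symbol probe sets, which belong to 63 of 19937 genes. The rule used symbols alone, but the family was selected on the shRNA minus control differences of the same 5 arrays, which were known when it was picked. The differences of the family are therefore given as a description, without a test of the family.

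The study asked which genes depend on Grhl2, an epithelial transcription factor of the grainyhead-like family, in a lung epithelial line. There were 3 Grhl2 shRNA samples and 2 non-silencing control samples, each an independent transduction per the labels. Both groups were MLE-15 cells, a mouse line grown from tumours of animals in which the human SP-C promoter drove SV40 large T antigen. Both received a VSV-G pseudotyped lentivirus with a GFP reporter over 16 h, with polybrene at 5 µg/ml and a multiplicity of infection of 50, and both went through 6 days of puromycin selection at 5 µg/ml. The labels name 1 hairpin against Grhl2, and 300 ng of total RNA from each culture went onto its own whole-transcript array. All values below are log2 intensities, a scale inferred from the method and the values, and all differences are shRNA minus control on that scale.

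The ribosome of the cytosol joins a small subunit, which reads the mRNA, to a large subunit, which forms the peptide bond. Each subunit is ribosomal RNA bound by many small basic proteins, named Rps for the small and Rpl for the large subunit, and most of them are needed in equal numbers. Their mRNAs are among the most abundant in dividing cells and typically begin with a 5′ terminal oligopyrimidine (TOP) tract, through which mTORC1 and the RNA-binding protein Larp1 control their translation. Their genes have many processed pseudogene copies, so probes of one symbol can also bind RNA of another copy.

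Grhl2 itself had log2 values of 7.43, 7.43 and 7.60 in the shRNA cells, against 7.77 and 7.68 in the control cells. Every shRNA value was below both control values, and the mean was 85.0% of control. The difference of -0.24 ± 0.065 (SE) did not pass the test used for all genes (limma, adjusted p = 0.082), and permuting the 5 arrays exactly, two-sided, gave p = 0.2, where 0.1 is the smallest possible. Without shRNA replicate 3 the difference was -0.29 and passed (limma, adjusted p = 0.047). Epithelial genes were high in both groups: Epcam averaged 10.05 in shRNA cells and 9.98 in control cells, Cdh1 11.30 and 11.37, and Nkx2-1 10.00 in each. Cldn18 was low in both groups, at 4.48 in shRNA cells and 4.50 in control cells, and Lamp3, Ptprc and Kdr were below the signal filter. Markers of alveolar type II cells moved in both directions, and their part in the results was not tested. Sftpc, Sftpb and Sftpa1 differed by -0.25, 0.04 and 0.06 and did not pass (limma, adjusted p = 0.63, 0.66 and 0.61). Napsa averaged 7.27 in shRNA cells and 6.90 in control cells and was higher (difference 0.36; limma, adjusted p = 0.010), Sftpd averaged 7.48 and 7.82 and was lower (difference -0.33; limma, adjusted p = 0.021), and Abca3 averaged 8.76 and 8.92 and did not pass (limma, adjusted p = 0.060). Among markers of other cells, Tyrobp averaged 4.61 in shRNA cells and 4.33 in control cells, close to the signal filter of 4.22, and passed the test. Cd68 averaged 6.11 and 6.17 and did not pass. Pecam1, Cdh5, Col1a1, Col1a2 and Pdgfra had differences from -0.15 to -0.0002, and none of them passed. The part of these genes was not tested either. In RNA of a whole culture, a change in the share of a kind of cell and a change of RNA per cell cannot be told apart.

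Of the 63 members, 62 passed the signal filter and were tested. The exception was Rpl39l, a paralog of Rpl39, whose only probe set averaged 2.99. A gene was called where limma's p, adjusted by Benjamini-Hochberg over all 14979 genes tested, was under 0.05. By that measure 7 members were higher in shRNA cells, none was lower and 55 were not called. At an unadjusted p under 0.05, 30 members were higher and 0 lower, against 1687 higher and 1769 lower among all 14979 genes tested. Over all genes tested, 2.86% were called higher, 3.52% lower and 6.38% in either direction. The differences were small: the members' median was 0.11, or 1.08-fold, with a range from -0.12 to 0.39, while the median over all genes tested was 0.002 and their middle 50% lay from -0.07 to 0.07.

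The sign was shared more widely than the calls. The difference was above 0 in 54 members and below 0 in 8, while 50.9% of all genes tested were above 0 and 49.1% below. Leaving out control replicate 1 put 14 members below 0, and leaving out control replicate 2 put 4 there. The difference exceeded 0.2 in 12 members, lay from 0.1 to 0.2 in 23 and from 0 to 0.1 in 19. In 39 members every shRNA value was above both control values, in 2 every shRNA value was below both, and in 21 the groups overlapped. Among all genes tested, 21.0% had no overlap with shRNA higher and 20.5% with shRNA lower, or 41.5% in either direction. These shares come from the comparison with which the family was picked, so nothing is read from the gap between them.

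**Figure D1:**
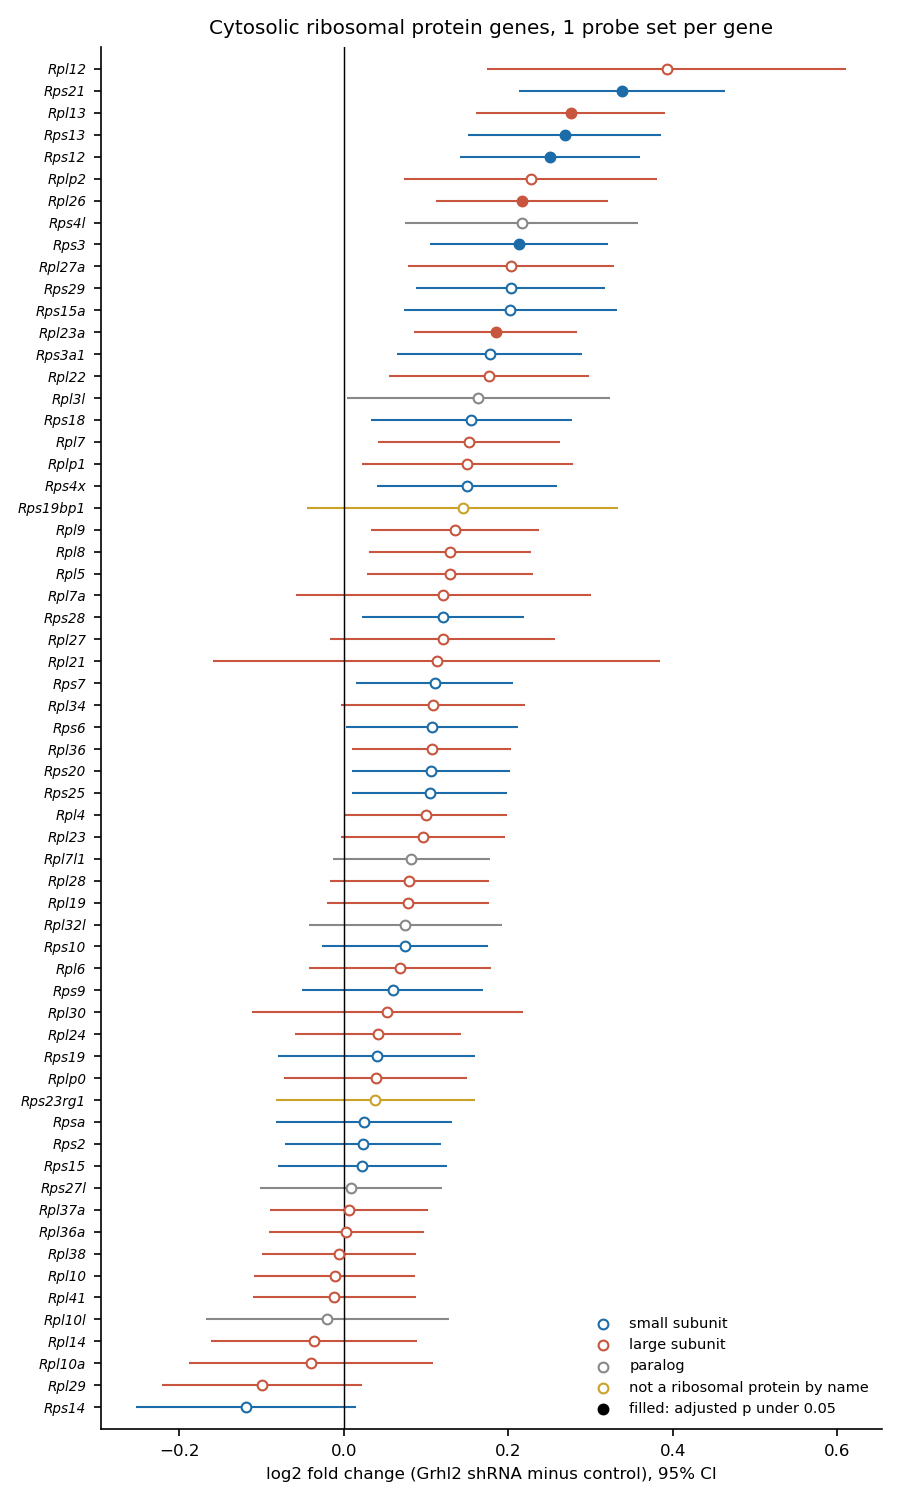
Differences (shRNA minus control, log2) of the 62 tested ribosomal protein genes, with lines for 95% confidence intervals, ordered by size, coloured by subunit or kind and filled where called. Most points lie above 0, between 0 and 0.2, and the 7 called genes lie between 0.18 and 0.34.

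**Figure D2:**
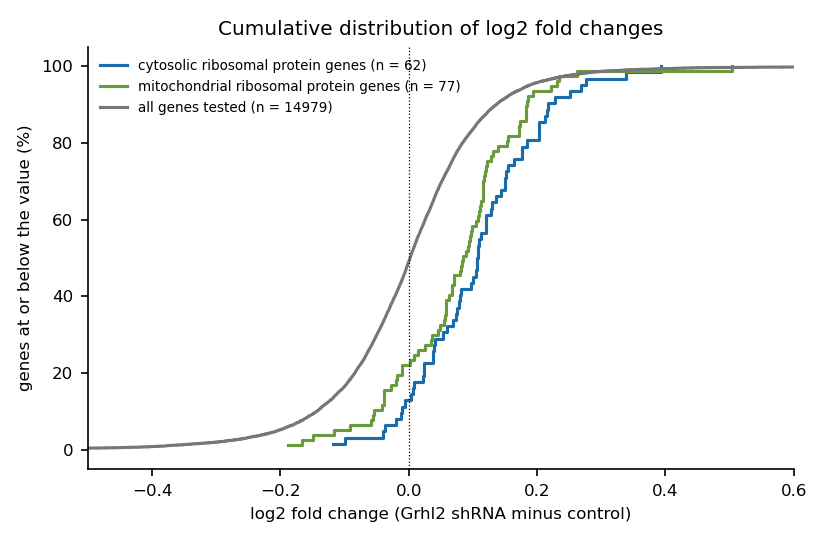
Cumulative share of genes (percent) against the difference (shRNA minus control, log2) for the 62 cytosolic ribosomal protein genes, 77 mitochondrial ribosomal protein genes and all 14979 genes tested. The cytosolic curve lies right of that of all genes below about 0.2, with medians of 0.11 and 0.002.

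The 7 called members were 4 proteins of the small subunit (Rps21, Rps13, Rps12 and Rps3) and 3 of the large subunit (Rpl13, Rpl26 and Rpl23a). Rps21, a small-subunit protein, had log2 values of 9.45, 9.52 and 9.49 in shRNA cells, against 9.09 and 9.21 in control cells. The lowest shRNA value stood above the higher control value. Rps21 averaged 9.49 ± 0.04 in shRNA cells (SD, n = 3) and 9.15 ± 0.09 in control cells (SD, n = 2), a difference of 0.34 ± 0.053 (SE, 95% confidence interval 0.21 to 0.46) or 1.26-fold (limma, adjusted p = 0.019). This was the largest difference among the called members. Which members were called depended on the probe set: with the mean of each gene's probe sets Rps21, Rps3 and Rpl26 kept their calls, and with the dimmest probe set Rps3 and Rpl26, which have 1 probe set each, did.

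Rps13 had log2 values of 10.30, 10.33 and 10.35 in shRNA cells and 10.00 and 10.12 in control cells. The groups did not overlap, and the difference was 0.27 ± 0.050 (SE), or 1.20-fold (limma, adjusted p = 0.029). Rps12, a protein of the beak of the small subunit, had values of 11.36, 11.45 and 11.38 in shRNA cells, against 11.12 and 11.17 in control cells. Its groups were also apart, with a difference of 0.25 ± 0.046 (SE; limma, adjusted p = 0.029). Rps3 lines the site where mRNA enters the ribosome and is marked with ubiquitin when ribosomes collide. It had values of 11.29, 11.36 and 11.28 in shRNA cells and 11.07 and 11.12 in control cells, a difference of 0.21 ± 0.046 (SE; limma, adjusted p = 0.043).

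Among large-subunit proteins, Rpl13 had log2 values of 11.09, 11.10 and 11.07 in shRNA cells, against 10.75 and 10.87 in control cells. The shRNA arrays lay closer together than the control arrays did, and the difference was 0.28 ± 0.049 (SE), or 1.21-fold (limma, adjusted p = 0.026). Rpl26 sits at the exit of the peptide tunnel and is a main target of the ubiquitin-like protein UFM1. It had values of 10.46, 10.46 and 10.40 in shRNA cells, against 10.20 and 10.25 in control cells, a difference of 0.22 ± 0.044 (SE; limma, adjusted p = 0.037). Rpl23a, also at the tunnel exit, is a docking point of the signal recognition particle. Its values were 11.57, 11.61 and 11.59 in shRNA cells and 11.38 and 11.43 in control cells, and its difference of 0.18 ± 0.042 (SE) had the highest adjusted p of the called members (limma, 0.049). The 10 probe sets of Rpl23a ran from -0.01 to 0.36, with 1 of them below 0. Fitted with all probe sets past the filter, the probe set used did not pass (limma, adjusted p = 0.055), while 2 others did.

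**Figure D3:**
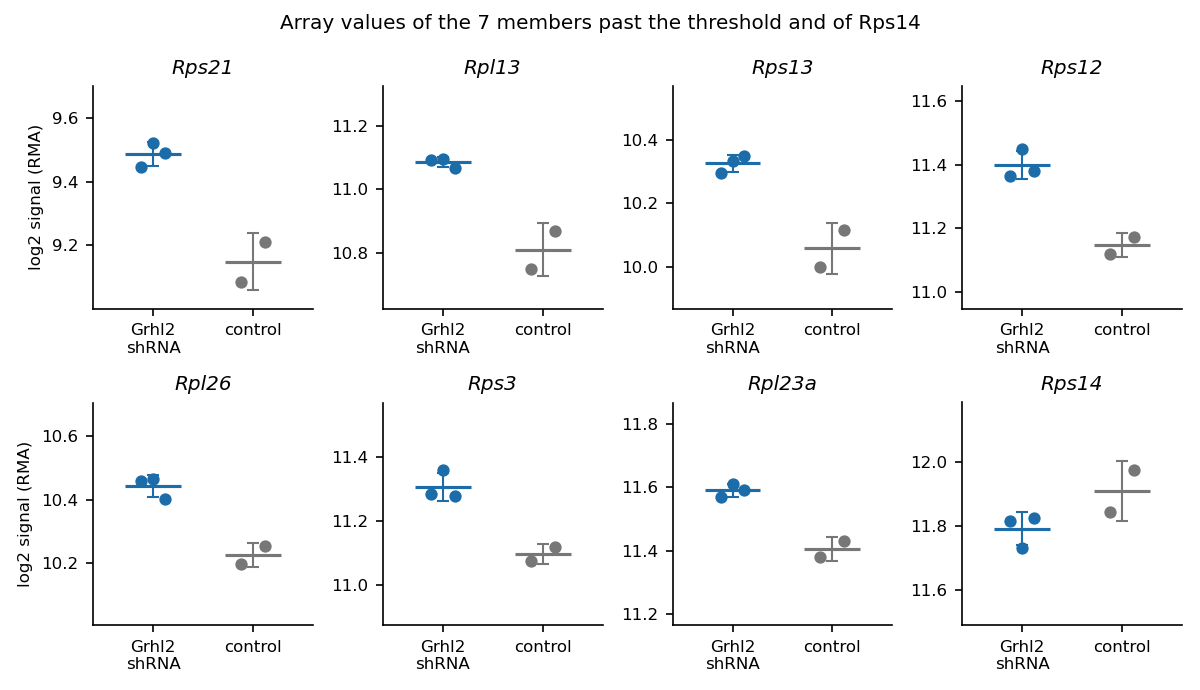
Log2 values (RMA) of the 7 called members and of Rps14, 1 point per array, with the 3 shRNA arrays left of the 2 control arrays, lines at group means and bars for the SD. Each axis covers only the range around its gene's values. In the called genes both control points lie below all 3 shRNA points, while Rps14 runs the other way.

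The threshold fell inside a run of similar values. Rpl12, of the stalk base, had the largest difference of any member but was not called. Its log2 values were 7.97, 7.95 and 7.68 in shRNA cells, against 7.54 and 7.40 in control cells, a difference of 0.39 ± 0.092 (SE, 95% confidence interval 0.17 to 0.61; limma, adjusted p = 0.055). The shRNA arrays of Rpl12 spread more widely (SD 0.16) than those of Rps21 (SD 0.04). Rps29 followed with 11.70, 11.77 and 11.81 in shRNA cells and 11.58 and 11.54 in control cells (limma, adjusted p = 0.057). Rpl27a, Rps3a1 and Rps15a had adjusted p of 0.071, 0.076 and 0.078 in the same limma fit.

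The start sites of 6 of the 7 called genes are shown because the TOP tract belongs at the first bases of these mRNAs. Each window runs from 15 bases before to 15 bases after the transcript start in RefSeq GRCm38.p6, 5′ to 3′ on the gene's own strand. Capitals mark a run of at least 6 pyrimidines that begins with C. Rpl23a has no entry and is named only. Rps21 has a second listed start, and Rpl38, Rpl41 and Rpl10 are shown as members with differences near 0.
Rps21, chr2:180257364-180257393, plus strand: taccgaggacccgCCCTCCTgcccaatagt
Rps21 second start, chr2:180257434-180257463, plus strand: ggacaagtgagcaggtaggcctcggtgcgg
Rpl13, chr8:123102335-123102364, plus strand: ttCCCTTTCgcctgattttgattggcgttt
Rps13, chr7:116334176-116334205, minus strand: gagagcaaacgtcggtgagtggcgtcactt
Rps12, chr10:23787195-23787224, minus strand: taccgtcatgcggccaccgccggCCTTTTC
Rpl26, chr11:68901551-68901580, plus strand: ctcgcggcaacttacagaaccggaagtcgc
Rps3, chr7:99483695-99483724, minus strand: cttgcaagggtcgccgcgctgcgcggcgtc
Rpl38, chr11:114668565-114668594, plus strand: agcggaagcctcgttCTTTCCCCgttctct
Rpl41, chr10:128549154-128549183, minus strand: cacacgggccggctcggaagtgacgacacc
Rpl10, chrX:74270801-74270830, plus strand: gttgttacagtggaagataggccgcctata

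A run stands in these windows of Rps21, Rpl13 and Rps12, and in that of Rpl38, but at a different distance from the listed start in each. The windows of Rps13, Rpl26 and Rps3 hold none, which says only that these letters are not within the window. RefSeq promoter entries were found for 51 of the 63 members, with 60 starts. Within 20 bases on each side of the start, such a run was on the gene's strand in 31 of 60 member starts (51.7%), against 29.4% of all 32851 starts in the table, and on the other strand in 15.0%, against 32.3%. Tested members with a run at any listed start (29) had a median difference of 0.10, and those without (21) of 0.11.

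The letters CCGGAAG, the core that ETS factors such as Gabpa bind, were found on either strand of the 300-base promoter in 20 of 60 member starts (33.3%), against 8.86% of all. In the Rpl26 window above they read ccggaag just after the start. ATGGCGG, the core of the YY1 motif, was in 15.0% of member starts, against 4.05% of all. The grainyhead palindrome AACCGGTT was in 0 of 60 member starts, against 0.146% of all, and the looser form AACNNGTT, which includes it, in 1 of 60 (that of Rpl32l), against 4.20%. Members with CCGGAAG (18 tested) had a median difference of 0.11, and those without (32) of 0.10. A match of letters is a description and not a bound site.

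Both subunits had the same median difference. Of 21 small-subunit genes, 4 were called higher, 20 were above 0, and the median was 0.11. Of 33 large-subunit genes, 3 were called higher, 27 were above 0, and the median was also 0.11. Of all genes tested, 2.86% were called higher and 50.9% were above 0. Proteins of the mRNA channel include Rps3, but Rps2 differed by only 0.02, and 1 of 4 tested was called. Of the 5 tested proteins around the exit tunnel, Rpl26 and Rpl23a were called, and the median was 0.18.

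The stalk of the large subunit, built from Rplp0, Rplp1 and Rplp2 on the base formed with Rpl12, recruits the elongation factors. None of these 4 genes was called by limma (3 were higher at an unadjusted p under 0.05, as were 1687 of all 14979 genes). All 4 differences were above 0, although that of Rplp0 was -0.01 without control replicate 1. Rplp2 had log2 values of 5.72, 5.73 and 5.78 in shRNA cells, against 5.41 and 5.62 in control cells, a difference of 0.23 (limma, adjusted p = 0.090). Its only probe set was dim, with a mean of 5.65 over the 5 arrays, below the median of 7.46 for all genes tested. Rplp1 had 12.24, 12.29 and 12.14 in shRNA cells and 12.06 and 12.08 in control cells, a difference of 0.15. Rplp0, often used to normalise expression, differed by 0.04, and its groups overlapped at 12.48, 12.50 and 12.46 in shRNA cells and 12.39 and 12.49 in control cells. Rpl5 carries the 5S ribosomal RNA together with Rpl11 and binds Mdm2. It had 11.99, 11.99 and 12.03 in shRNA cells, against 11.85 and 11.91 in control cells, a difference of 0.13 (limma, adjusted p = 0.13), and Rpl11 has no single-symbol probe set. Fau, which encodes a ubiquitin-like protein fused to Rps30, differed by 0.01 (limma, adjusted p = 0.95), a sign that turned with another scaling of the arrays (cyclic loess, -0.01).

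Genes mutated in human Diamond-Blackfan anaemia were 9 of the tested members, out of 18 listed. Rpl26 was the called one, all 9 differences were above 0, in 7 the groups did not overlap, and the median was 0.12. Of all genes tested, 2.86% were called higher, 50.9% were above 0 and 21.0% did not overlap with shRNA higher. These 9 genes belong to the picked family, so nothing is read from the gap. Rps19, the gene most often mutated in that disease, differed by 0.04 (limma, adjusted p = 0.70), with 10.99, 11.11 and 10.99 in shRNA cells and 10.99 in both control samples.

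No member was called lower, and the 6 differences farthest below 0 did not pass the test. Rps14, a small-subunit platform protein, lay lowest, with log2 values of 11.82, 11.73 and 11.83 in shRNA cells and 11.84 and 11.98 in control cells. All shRNA values were below both control values, and the difference was -0.12 ± 0.057 (SE, 95% confidence interval -0.25 to 0.02; limma, adjusted p = 0.27). Rpl29 had 7.84, 7.72 and 7.79 in shRNA cells, against 7.85 and 7.91 in control cells, a difference of -0.10 (limma, adjusted p = 0.30). Rps14 and Rpl29 were the 2 members whose shRNA arrays all lay below the control arrays. The next were Rpl10a and Rpl14, each at -0.04, then Rpl10l at -0.02 and Rpl41, the smallest of the ribosomal proteins, at -0.01. Rpl10, which joins the large subunit last, and Rpl38, whose sign turned when each array was centred on its median, were also at -0.01, with confidence intervals from -0.11 to 0.09 and from -0.10 to 0.09.

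Paralogs replace or accompany a standard subunit in certain tissues. None of the 6 tested paralogs was called by limma, and their median was 0.08. At an unadjusted limma p under 0.05, 2 of them were higher, as were 1687 of all 14979 genes tested. Rps4l had log2 values of 5.82, 5.70 and 5.66 in shRNA cells, against 5.47 and 5.56 in control cells, a difference of 0.22, and its partner Rps4x differed by 0.15. Rpl7l1 differed by 0.08 and its partner Rpl7 by 0.15, and the pair Rpl10l and Rpl10 by -0.02 and -0.01. The difference between partners was not tested. Rpl3l, the striated muscle form of Rpl3, differed by 0.16 (limma, adjusted p = 0.21), and Rps27l, a p53 target, by 0.01. Rpl22 (0.18) and Rpl36a (0.003, and -0.01 with cyclic loess) were tested, while Rpl22l1, Rpl36al, Rpl3 and Rps27 occur only in rows with several symbols. The rule also takes in Rps19bp1 and Rps23rg1, which by name are not ribosomal proteins, and they differed by 0.14 and 0.04.

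Several probe sets carry the same symbol in 38 members, up to 10 for Rpl23a. Each gene was represented by its brightest probe set. Of the 188 member probe sets past the filter, 161 had differences above 0 and 27 below, with a median of 0.11. Among the 38 members with several probe sets past the filter, 26 had all of them above 0, Rps14 had both below 0, and 11 had both signs. The 9 probe sets of Rpl13 were all above 0, from 0.08 to 0.32, and the 2 of Rps21 were at 0.34 and 0.20. Probe sets of one gene share sequence and the same arrays, so they are not replicates.

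**Figure D4:**
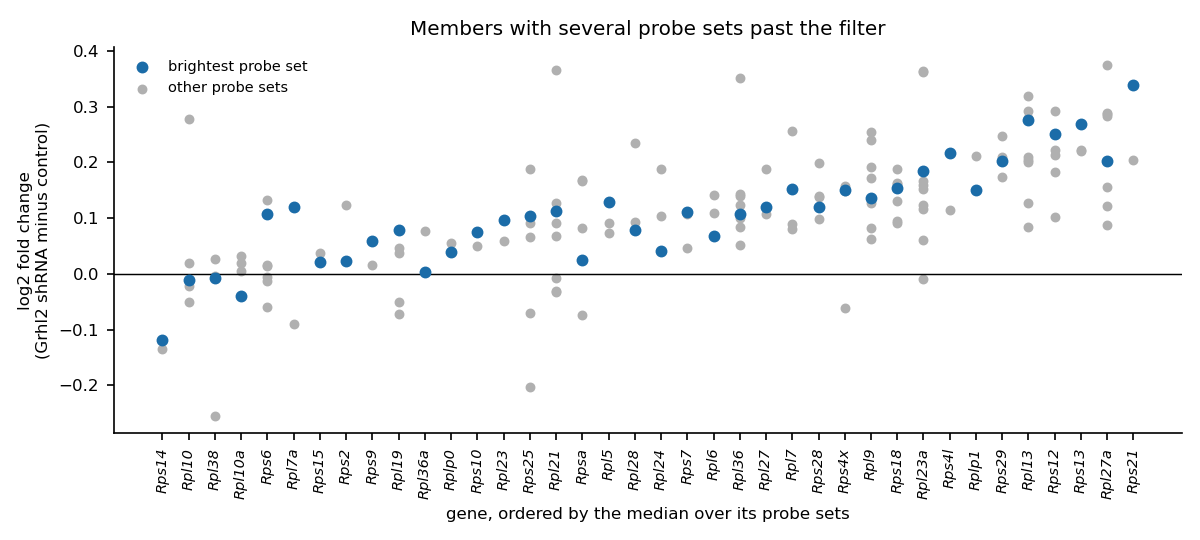
Differences (shRNA minus control, log2) of the single probe sets of members with several, with the brightest one marked. Those of Rpl13, Rps13 and Rpl9 all lie above 0, while those of Rps25 run from -0.20 to 0.19.

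The members with both signs were Rpl10, Rpl10a, Rpl19, Rpl21, Rpl23a, Rpl38, Rps25, Rps4x, Rps6, Rpl7a and Rpsa. For Rps25 the probe sets ran from -0.20 to 0.19, and for Rpl10 from -0.05 to 0.28. One probe set of Rpl38 had log2 values of 9.86, 10.87 and 11.003 in shRNA cells, against 10.77 and 10.89 in control cells, so its difference of -0.25 rests on 1 low shRNA array. When every probe set past the filter was tested by itself, 15 member probe sets in 10 genes were called higher and 0 lower, where 2.59% of all such probe sets were called higher, 3.04% lower and 5.63% in either direction. A further 209 rows list several symbols, a ribosomal protein among them, and were not assigned to a gene. Of the 191 of these past the filter, 167 were above 0 and 24 below, with a median of 0.10.

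To show the single arrays, each gene's values were set against the midpoint of its group means. In a family picked for its group difference, this largely fixes opposite signs for the groups, so the values describe the spread within a group. The median member stood at 0.04, 0.07 and 0.04 on the 3 shRNA arrays, against -0.06 and -0.03 on the 2 control arrays, while the median of all genes lay within 0.01 of 0 on each. On the shRNA arrays 49, 50 and 50 of the 62 members lay above their midpoint, against 5 and 16 on the control arrays. Of all 14979 genes tested, 7758, 7898 and 7001 lay above theirs on the shRNA arrays, against 7930 and 6933 on the control arrays. The control arrays differed from each other, and control replicate 1 was the lowest array for the family. The count of 7 called members rests on the full set of arrays: it was 1 without shRNA replicate 1, 0 without shRNA replicate 2, 2 without shRNA replicate 3 and 0 without either control replicate. At an unadjusted p under 0.05 in limma, 20 members were higher without shRNA replicate 2, 15 without control replicate 1 and 22 without control replicate 2. The matching counts over all genes are not given for these fits. The members' median stayed above 0, at 0.09 without control replicate 1 and 0.12 without control replicate 2.

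**Figure D5:**
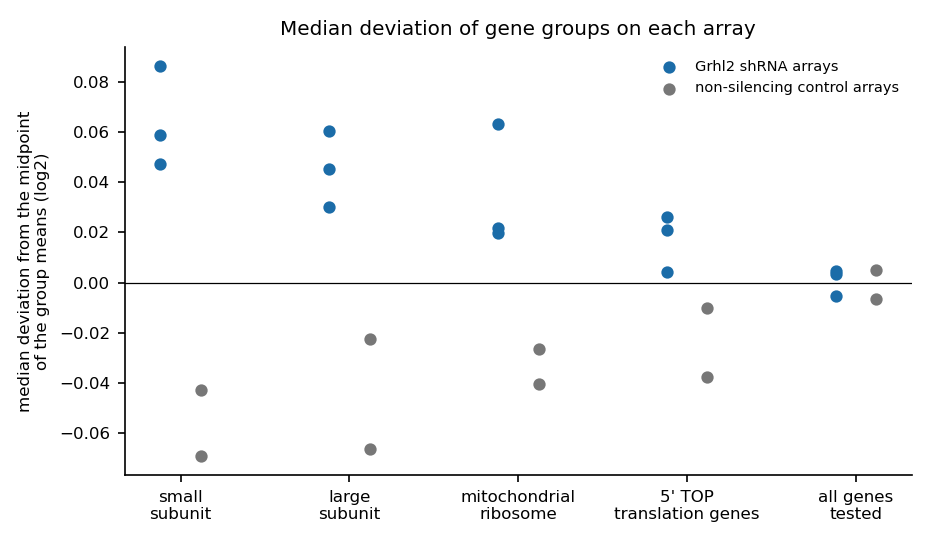
Median position of each gene list on each array (log2, relative to the midpoint of the group means), with the 3 shRNA arrays left of the 2 control arrays. Small- and large-subunit genes lie above 0 on the shRNA arrays and below 0 on the control arrays. Mitochondrial ribosomal protein genes and TOP translation genes do so too, the TOP genes by only 0.004 on shRNA replicate 2. All genes lie near 0.

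The members' signal was high, with a median of 11.30 over the 5 arrays, against 7.46 for all genes tested. The brightest probe set on an array reached between 13.03 and 13.12. The called members all had means below 12, and the 16 members with a mean of 12 or more had a median difference of 0.08. Of all 49 genes tested with a mean of 12 or more, 0% were called higher. Among the 6 members from 10 to 11, 3 were called and the median was 0.17. Of all genes tested in that range, 2.15% were called higher. From 11 to 12, 3 of 22 members were called, against 1.45% of all genes tested there called higher. Below 10, 1 of 18 members was called, against 2.95% of all genes tested there called higher. The family and the signal ranges were picked with the values known, so nothing is read from these gaps. The part of signal in the size of the differences was not tested.

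Other mRNAs of the translation machinery begin with a TOP tract as well. Of 14 tested genes in a list of elongation factors, initiation factors and related proteins, limma called none (2 were higher at an unadjusted p under 0.05 and 0 lower), 11 were above 0, and the median was 0.05, with a range from -0.09 to 0.18. At the unadjusted p, 1687 of all 14979 genes tested were higher and 1769 lower. In 7 of the 14 the groups did not overlap with shRNA higher, and in 1 with shRNA lower, against 21.0% and 20.5% of all genes tested. Eef1b2, which reloads elongation factor 1 with GTP, had the largest difference. Its log2 values were 11.57, 11.67 and 11.61 in shRNA cells, against 11.42 and 11.46 in control cells, a difference of 0.18 (limma, adjusted p = 0.070). Eef1d differed by 0.13, Eif3e by 0.09 and Eif3f by 0.08, while Eef1a1 differed by 0.02, Eef2 by -0.005 and Eif4b by -0.09.

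Genes that control the making of ribosomal proteins were tested as 13 genes, among them Larp1, the mTORC1 subunits and the transcription factors Gabpa and Yy1. At an unadjusted limma p under 0.05, 1 was higher and 0 lower, against 1687 and 1769 of all 14979 genes tested. By the adjusted p 0 of the 13 were called, 7 were above 0, and the median was 0.01. Myc, an activator of ribosome synthesis, had the largest difference, with 10.07, 10.11 and 9.98 in shRNA cells and 9.85 and 9.86 in control cells, a difference of 0.20 (limma, adjusted p = 0.066). Larp1 differed by -0.004 and Mtor by -0.08.

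Dedicated chaperones escort single ribosomal proteins to the nucleus. Of 6 tested, Bccip and Tsr2 were called higher, where 2.86% of all genes tested were, and the median was 0.19. Bccip, whose yeast counterpart escorts Rpl23, had 8.58, 8.58 and 8.62 in shRNA cells, against 8.39 and 8.38 in control cells, a difference of 0.21 ± 0.040 (SE; limma, adjusted p = 0.032). Tsr2, the escort of Rps26, had 8.002, 7.96 and 7.86 in shRNA cells, against 7.70 and 7.71 in control cells, a difference of 0.23 ± 0.052 (SE; limma, adjusted p = 0.047). Bccip was not called without any one of the 5 arrays, and Tsr2 kept its call only without shRNA replicate 3. Rps26 has no single-symbol probe set, and Rpl23 differed by 0.10 (limma, adjusted p = 0.23).

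Mitochondrial ribosomal proteins form a separate ribosome for the mRNAs of the mitochondrial genome. Of their 77 tested genes, 7 were called higher and 0 lower by limma (21 and 4 at an unadjusted p under 0.05), 60 were above 0, and the median was 0.09. At the unadjusted p, 1687 of all 14979 genes tested were higher and 1769 lower. The shares of all genes tested were 2.86% called higher, 3.52% called lower and 50.9% above 0. The 7 became 1 without shRNA replicate 1 or 2 or without either control replicate, and 4 without shRNA replicate 3, while the median stayed between 0.07 and 0.09. Their medians by array were 0.06, 0.02 and 0.02 on the shRNA arrays, against -0.03 and -0.04 on the control arrays. The difference between the cytosolic and mitochondrial sets was not tested.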

How the data were processed

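The authors deposited 1 table of log2 values, where the log base is inferred from RMA and the value range because no header states it. Per the submitters' processing notes, RMA and Affymetrix Expression Console were used. The sources used here give no versions, and no scanner files were used. RMA scales arrays to each other, so these values cannot show an equal change of all mRNAs. The table holds 34760 probe sets. Symbols came from the platform annotation, and 21553 of 21640 single-symbol probe sets matched RefSeq GRCm38.p6 by Entrez ID. Single-symbol probe sets with a mean below 4.22, the 25th percentile, were left out, and the brightest probe set stood for each gene (14979 genes). The 3 shRNA and 2 control arrays were compared with limma 3.58.1 (lmFit and eBayes) in R 4.3.3, two-sided, with Benjamini-Hochberg adjustment over all genes tested. The code was tested on simulated data. Precision is limited by the number of arrays, and a difference had a median standard error of 0.051 over all genes.

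Members, gene lists and alternatives were chosen with earlier results of these data known. The genes described were Grhl2, every called member, the 6 members farthest below 0, paralog pairs, the stalk, 5S and ubiquitin-fusion proteins, members whose probe sets differ in sign, and the called or largest genes of each other list. Rps29, Rpl27a, Rps3a1, Rps15a, Rps19, Rps2, Rpl23, Eef1a1, Eef1d, Eef2, Eif3e, Eif3f, Eif4b, Larp1 and Mtor were added after their values were seen, as were the looser grainyhead motif, the signal ranges and the roles given to Rpl32l and Rps23rg1. Arrays correlated at 0.9984 to 0.9987 within a group and 0.9967 to 0.9971 between groups.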

Additional observations from a re-analysis of the deposited data

How the results depend on the processing

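The median difference of the ribosomal protein genes stayed between 0.09 and 0.12 under every alternative run, and no alternative called a member lower (limma, 0 or 1 lower at an unadjusted p under 0.05). The number called higher, 7 in the values reported, was 0 at an adjusted p under 0.01 (30 at an unadjusted p under 0.05), 15 under 0.1, 16 with the filter at the 50th percentile (fewer genes tested), 1 without a filter (more genes tested), 5 with the mean of probe sets (Rpl13, Rps12, Rps13 and Rpl23a lost their calls), 2 with the dimmest probe set (Rps3 and Rpl26), 28 with a trended robust prior and 0 without moderation (28 at an unadjusted p under 0.05). With all 34760 probe sets fitted and none filtered, limma called 0 at an adjusted p under 0.05, in the family or elsewhere. Tested by itself, every probe set past the filter gave 15, an alternative chosen after seeing the data. Leaving out 1 array gave 0 to 2. Over all genes, the calls were 53 higher and 77 lower at 0.01, 855 and 996 at 0.1, 785 and 923 with the 50th percentile, 177 and 241 without a filter, 5 and 4 without moderation and 957 and 1077 with the trended prior, and leaving out 1 array gave 36 to 203 higher and 39 to 289 lower. Of the TOP genes 1 was called at 0.1, with the 50th percentile and with the trended prior. Of the control and chaperone genes, 2 in the values reported, 0 were called at 0.01, without a filter and without moderation, 1 with the dimmest probe set, 4 at 0.1 and with the 50th percentile, 5 with the trended prior, and 0 to 1 without 1 array. The replicate numbers were not used as pairs in the values reported. Deviations of same-numbered samples correlated at 0.057 and 0.019. With 2 control arrays the crossed pairs must give the same values with opposite sign. These correlations therefore cannot show whether same-numbered samples shared a preparation. With a replicate block, in which shRNA replicate 3 has no partner and adds nothing, 60 genes were called higher and 112 lower, with 1 member (Rpl12, none of the 7) and 0 of the control and chaperone genes. Signs turned only in differences that were not called, for 8 members without control replicate 1, 4 without control replicate 2 and 9 with the dimmest probe set. They turned for 3, 1 and 2 members without shRNA replicates 1, 2 and 3. It was 2 each with cyclic loess, the mean of probe sets and the block, and 1 with each array centred on its median. Rpl30 was -0.0107 without shRNA replicate 3 and with the block. Rpl37a was -0.00543 with cyclic loess and -0.00697 without shRNA replicate 1. With the dimmest probe set Rpl10 was 0.28, Rpl10a 0.019 and Rps4x -0.0615, and with the mean of probe sets Rpl10 was 0.0432 and Rpl10a 0.00388. With cyclic loess Fau was -0.00549 and Rpl36a -0.00931, and with the block Rpl36a was -0.000481. Without 1 array, the range was -0.0255 to 0.0394 for Fau, -0.0246 to 0.00372 for Rpl10, -0.114 to 0.0343 for Rpl10a, -0.058 to 0.0329 for Rpl10l, -0.0141 to 0.0199 for Rpl36a, -0.0412 to 0.0175 for Rpl41, -0.0124 to 0.0893 for Rplp0 and -0.041 to 0.0585 for Rps27l. Without control replicate 1 the signs of Rpl21, Rpl7a, Rps15 and Rpsa turned as well, and without control replicate 2 that of Rpl38. Where no reason is given, the cause was not tested.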
